A study of Mus musculus with 12 samples.

Results

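The genes described here encode the machinery that burns fatty acids in mitochondria, together with pyruvate dehydrogenase, the TCA cycle and the mitochondrial protein Chchd10. The 39 members were listed by symbol, and a gene counted as measured where the array's annotation gave it a probe set, the set of probes for a transcript, with no other symbol. All 39 were measured, out of 19938 genes tested, and they lie on 17 chromosomes. RNA was taken from 4 arteries of 8-week-old wild-type C57BL/6 mice with no treatment: the ascending aorta, the coronary artery, the descending aorta and the superior mesenteric artery, which supplies the intestine. Each vessel had 3 arrays, 12 in all, labelled as biological replicates; the labels do not say whether an array holds RNA of 1 mouse or of a pool, so the p-values cover only the variation among these 12 samples. The vessels were hybridised as whole tissue RNA, so fewer cells of a type and less RNA per cell cannot be told apart. Values are log2 expression as the authors deposited them, so a difference of 1 is a doubling.

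Fatty acids cross the cytosol bound to carriers such as Fabp3, are joined to carnitine for passage into the mitochondrial matrix, and are there shortened step by step to acetyl-CoA by dehydrogenases, hydratases and thiolases. Pyruvate dehydrogenase makes acetyl-CoA from pyruvate, its kinases switch it off, and the TCA cycle oxidises acetyl-CoA to carbon dioxide. Cardiac muscle and brown adipose tissue are known for high levels of this machinery, and both lie close to some of the vessels sampled here.

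The members as a group were highest in the descending aorta and lowest in the superior mesenteric artery. Their mean log2 value was 8.56, 8.94 and 8.73 in the 3 arrays of the descending aorta and 6.67, 6.51 and 6.34 in those of the superior mesenteric artery. In the coronary artery it was 8.07, 7.90 and 8.27. In the ascending aorta it was 7.21, 8.33 and 8.27, so replicate 1 stood more than 1 log2 unit below the other arrays of that vessel. The 3 mesenteric arrays lay below all others and the 3 descending aorta arrays above all others, while the ranges of the ascending aorta and the coronary artery overlapped. Over single genes, 36 of the 39 members had their highest mean in the descending aorta, against 25.8% of all genes tested, and 38 had their lowest in the superior mesenteric artery, against 23.3% of all genes. The members were chosen with earlier results of these data known. Shares of all genes, here and below, are therefore a description and not an independent test of the list.

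**Figure D1:**
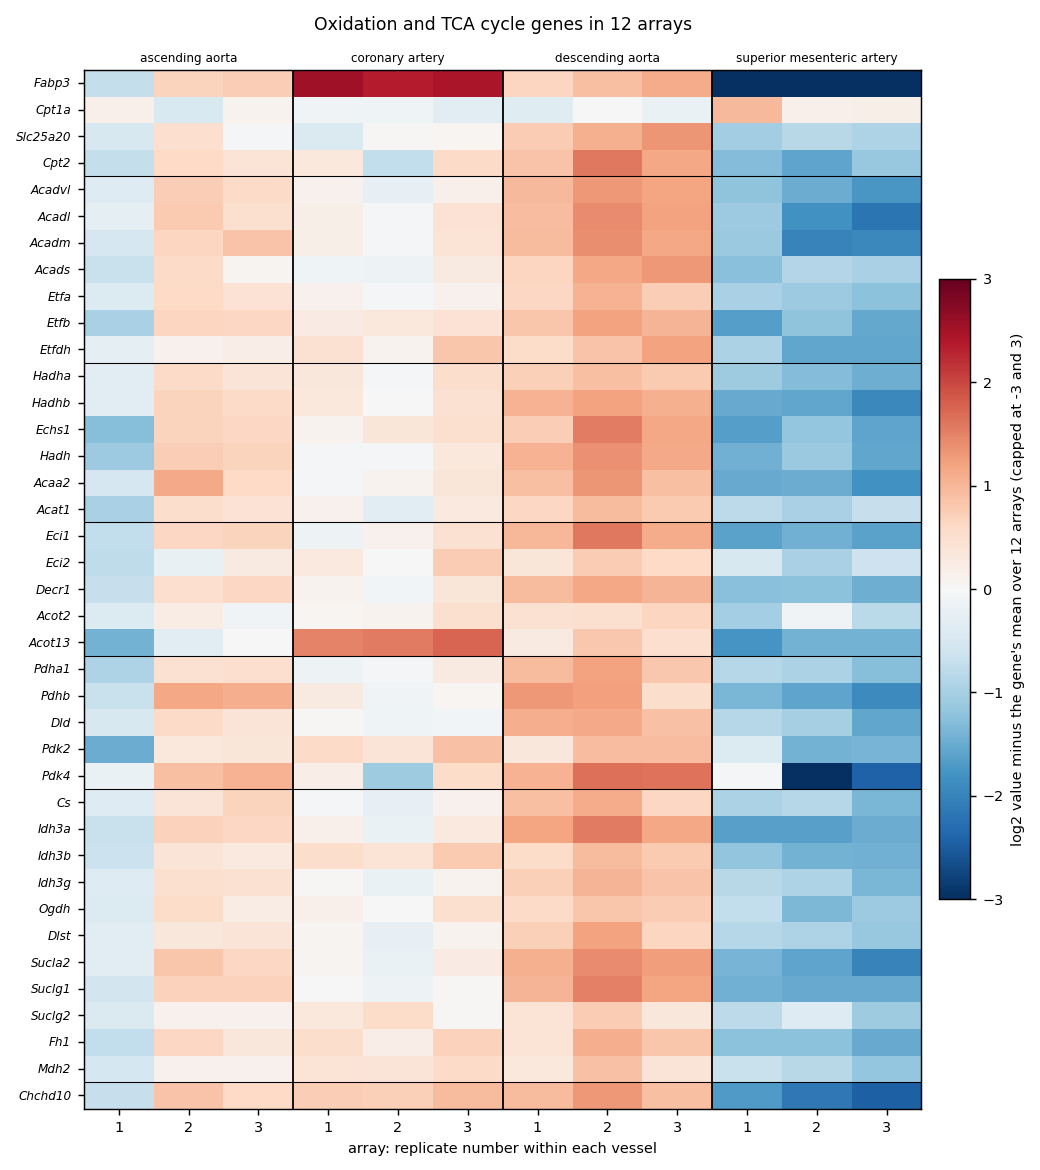
Log2 value of each of the 39 members (rows, grouped by role) in each of the 12 arrays (columns), minus that gene's mean over the 12 arrays; red is above the mean and blue below, with colours capped at -3 and 3. The mesenteric columns are blue for nearly all members and the descending aorta columns red; Cpt1a runs the other way, and Fabp3 and Acot13 are deepest red in the coronary artery.

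The order of the 4 vessel means was descending aorta, ascending aorta, coronary artery, mesenteric artery for 21 members and descending aorta, coronary artery, ascending aorta, mesenteric artery for 15. For Fabp3 and Acot13 the coronary artery came first, then the descending aorta, the ascending aorta and the mesenteric artery, and for Cpt1a the mesenteric artery came first and the descending aorta last. The limma F test, which asks whether any vessel mean differs, called 35 of 39 members at an adjusted p under 0.05, against 4.72% of all genes tested. The members it did not call were Cpt1a (limma adjusted p = 0.365), Acat1 (0.0631), Acot2 (0.0554) and Pdk2 (0.0740).

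Transcripts of other cell types differed between the same vessels. The 14 cardiomyocyte markers averaged 10.21 to 10.28 in the coronary artery, 3.87 to 5.88 in the descending aorta and 3.86 to 4.69 in the other 6 arrays; all 14 were measured, and replicate 1 of the descending aorta was the array at 5.88. The 10 brown adipocyte markers averaged 5.49 to 6.29 in the descending aorta, 5.01 to 5.37 in the ascending aorta, 3.68 to 3.92 in the coronary artery and 3.27 to 3.86 in the mesenteric artery. Ucp1, the uncoupling protein that defines brown fat, was between 10.60 and 11.59 in the 6 aortic arrays and between 3.05 and 6.82 in the other 6. The 13 measured markers shared by white and brown adipocytes averaged 8.41 to 8.99 in the descending aorta and 8.33 and 8.64 in replicates 2 and 3 of the ascending aorta. They averaged 6.72 in replicate 1 of the ascending aorta and 5.92 to 6.63 in the 6 coronary and mesenteric arrays. That ascending array carried the 9 measured B and T lymphocyte markers at 8.29, against 3.93 to 7.05 in the other 11 arrays, and replicate 3 of the mesenteric artery carried the 8 measured pancreatic acinar markers at 9.45, against 3.29 to 5.04 elsewhere. Replicate 1 of the ascending aorta was also the lowest array for the 8 fibroblast markers, at 6.01, against 7.67 to 8.51 in the other 11 arrays. The next highest lymphocyte means were 7.05 and 6.75, in replicates 2 and 3 of the mesenteric artery. Those 2 arrays also had the highest means of the 8 macrophage markers, 8.57 and 7.86, against 6.68 to 7.38 elsewhere. The 9 smooth muscle markers, which define the artery wall, were lowest in the coronary artery, at 5.26 to 5.56, and at 7.19 to 7.53 in the descending aorta. In replicates 1 to 3 they were at 6.54, 8.68 and 8.78 in the ascending aorta and at 9.25, 5.93 and 6.55 in the mesenteric artery. Replicate 1 of the mesenteric artery had the highest value of its vessel for 23 of the 39 members and the lowest for 9. The part of these other cells in the differences below was not tested.

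**Figure D2:**
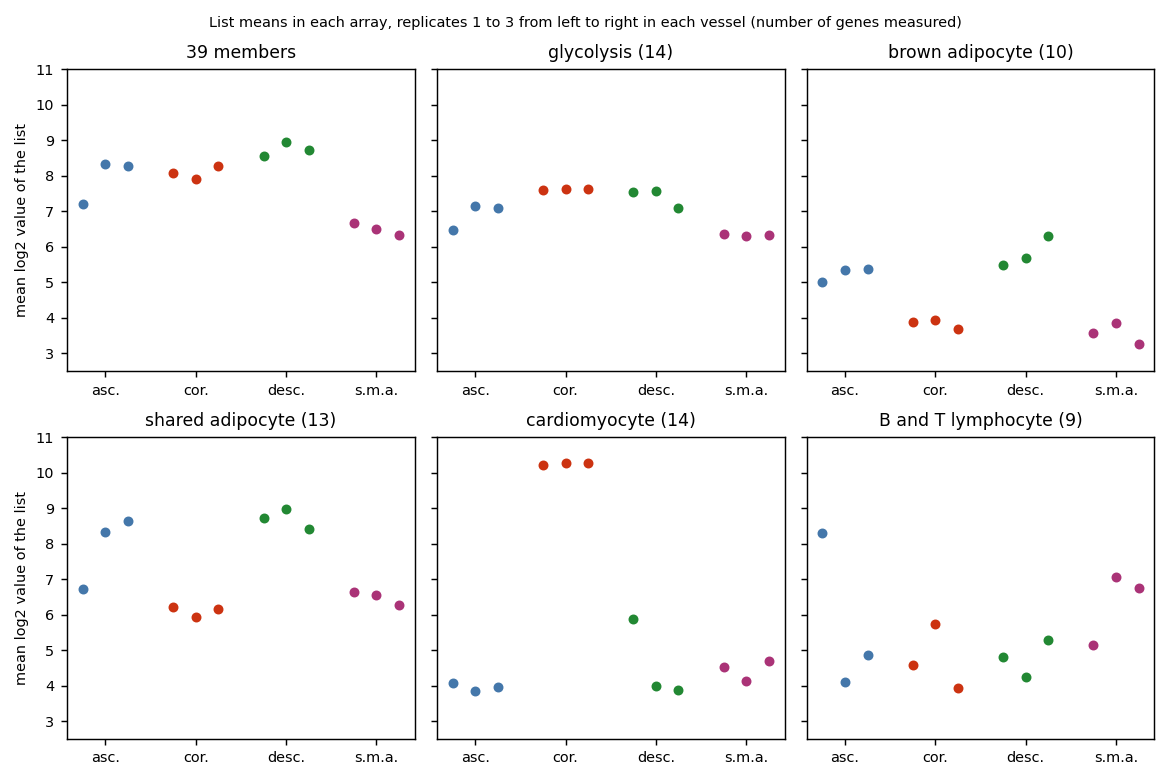
Mean log2 value (vertical axis) of the 39 members, of 14 glycolysis genes and of 4 marker lists in each array; points are single arrays, with replicates 1 to 3 from left to right in each vessel (asc. ascending aorta, cor. coronary artery, desc. descending aorta, s.m.a. superior mesenteric artery). Members are lowest in the mesenteric artery and cardiomyocyte markers stand out in the coronary artery. Both adipocyte lists are high in the aorta, but the shared list drops in replicate 1 of the ascending aorta, where lymphocyte markers are high.

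Promoter sequence was set beside these values because most members shared the same order of vessels. RefSeq windows of 300 bases on GRCm38.p6, from 250 bases before to 50 after the transcript start, were found for 34 of the 39 members (40 windows). The following 5 are shown. Fabp3 passed the limma threshold in 5 of the 6 comparisons given below, more than any other member, Acadvl, Sucla2 and Suclg1 are the 3 that passed in 4, and Hadhb was chosen after its values were seen, for its divergent start shared with Hadha. Capitals mark AGGTCA, the core sequence that many nuclear receptors recognise, and GGGCGG, the core of the GC box bound by Sp1, on either strand, and a single capital marks the first transcribed base.
Fabp3, chr4:130308488-130308787, plus strand: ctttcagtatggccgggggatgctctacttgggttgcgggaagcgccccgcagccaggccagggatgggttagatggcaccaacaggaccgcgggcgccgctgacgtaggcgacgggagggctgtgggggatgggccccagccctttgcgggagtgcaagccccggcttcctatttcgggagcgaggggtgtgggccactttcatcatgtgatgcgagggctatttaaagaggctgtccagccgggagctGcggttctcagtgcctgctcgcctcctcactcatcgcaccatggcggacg
Acadvl, chr11:70015379-70015678, minus strand: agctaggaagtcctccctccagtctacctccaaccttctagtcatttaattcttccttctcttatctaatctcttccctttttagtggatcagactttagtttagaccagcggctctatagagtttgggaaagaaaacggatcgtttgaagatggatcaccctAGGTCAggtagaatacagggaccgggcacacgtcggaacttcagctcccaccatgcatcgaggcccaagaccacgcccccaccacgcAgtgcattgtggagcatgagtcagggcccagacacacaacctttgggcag
Sucla2, chr14:73552536-73552835, plus strand: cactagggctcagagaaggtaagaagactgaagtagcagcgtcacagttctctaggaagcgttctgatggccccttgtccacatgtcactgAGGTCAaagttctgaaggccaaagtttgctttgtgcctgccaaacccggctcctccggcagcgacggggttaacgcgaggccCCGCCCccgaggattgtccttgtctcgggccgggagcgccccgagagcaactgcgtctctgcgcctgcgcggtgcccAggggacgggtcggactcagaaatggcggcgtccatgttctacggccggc
Suclg1, chr6:73248255-73248554, plus strand: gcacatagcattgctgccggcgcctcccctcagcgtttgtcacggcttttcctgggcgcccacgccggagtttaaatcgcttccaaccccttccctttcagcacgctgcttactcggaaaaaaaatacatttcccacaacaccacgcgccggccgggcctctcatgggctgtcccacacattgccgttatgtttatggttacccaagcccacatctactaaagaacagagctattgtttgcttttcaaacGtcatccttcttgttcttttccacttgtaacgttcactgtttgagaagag
Hadhb, chr5:30155003-30155302, plus strand: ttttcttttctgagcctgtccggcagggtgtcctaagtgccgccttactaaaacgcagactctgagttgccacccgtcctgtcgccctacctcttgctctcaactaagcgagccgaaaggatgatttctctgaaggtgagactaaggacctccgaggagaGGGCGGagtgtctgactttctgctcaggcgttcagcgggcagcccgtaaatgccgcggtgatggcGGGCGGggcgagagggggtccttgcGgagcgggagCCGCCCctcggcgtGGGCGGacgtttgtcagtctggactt
The Fabp3 and Suclg1 windows held neither motif, that of Acadvl 1 AGGTCA, that of Sucla2 1 AGGTCA and 1 GGGCGG, and that of Hadhb 4 GGGCGG. Hadha on the minus strand and Hadhb on the plus strand start 273 bases apart on chromosome 5, and their windows share 228 bases, chr5:30155003-30155230.

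Across the 34 members with a window, TCAAGGTCA, the longer sequence recognised by estrogen-related receptors, was found on either strand in 0, against 0.466% of the 27025 genes in the table. A direct repeat of AGGTCA with 1 base between and at most 1 mismatch, the form that PPARs recognise, was found in 0, against 0.644% of genes. At such low shares, 0 among 34 genes is the likely outcome for any list, so these 0 counts do not set the members apart. The shorter AGGTCA, which both longer motifs contain, was present in 9 of 34 members, or 26.5%, against 18.1% of all genes, and GGGCGG in 21 of 34, or 61.8%, against 38.2%; these last motifs were searched after the first 2. The member windows had a median GC content of 60.5%, against 52.7% over all windows of the table. A match is a description of letters in a window and not a bound site.

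Among the carriers and the carnitine shuttle, Fabp3, the fatty acid carrier abundant in heart, had the widest range between vessels of all members. Its log2 values were 11.99, 11.81 and 11.91 in the coronary artery, 10.09, 10.36 and 10.56 in the descending aorta, 8.74, 10.12 and 10.20 in the ascending aorta and 5.46, 6.36 and 5.84 in the mesenteric artery. The coronary arrays were all above the rest and the mesenteric arrays all below, while the ranges of the 2 aortic segments overlapped. Fabp3 was 64.8-fold higher in the coronary than in the mesenteric artery (log2 difference 6.02 with a standard error of 0.35, limma adjusted p = 9.05e-07, n = 3 against 3). Against the same mesenteric arrays, the descending aorta was 21.9-fold higher, a log2 difference of 4.45 (limma adjusted p = 0.000115).

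Cpt2, which takes the acyl group off carnitine inside the mitochondrion, was at 8.39, 9.12 and 8.69 in the descending aorta, 7.85, 6.79 and 8.10 in the coronary artery, 6.82, 8.14 and 7.94 in the ascending aorta and 6.23, 5.94 and 6.39 in the mesenteric artery. Slc25a20, the carrier that swaps acylcarnitine for carnitine across the inner membrane, was at 6.62, 6.92 and 7.19 in the descending aorta and at 4.81, 5.04 and 4.95 in the mesenteric artery. Its coronary values of 5.43, 5.90 and 5.93 overlapped with the ascending aorta's 5.39, 6.37 and 5.82 and lay below every descending aorta array. Cpt1a, the liver form of the enzyme that joins long-chain fatty acids to carnitine, was the exception to the pattern. It was at 6.08, 5.26 and 5.28 in the mesenteric artery, 5.24, 4.64 and 5.21 in the ascending aorta, 5.0, 4.97 and 4.77 in the coronary artery and 4.74, 5.11 and 4.89 in the descending aorta. All 3 mesenteric values lay above those of the other vessels by at least a small margin, and none of the 6 comparisons passed the test: descending aorta minus mesenteric artery was -0.63 (limma adjusted p = 0.255). The muscle form, Cpt1b, was not analysed here.

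The acyl-CoA dehydrogenases carry out the first oxidation, each on its own chain length, and pass electrons through Etfa, Etfb and Etfdh to the respiratory chain. All 7 of these members were higher in the descending aorta than in the mesenteric artery, by 1.91 to 2.88 log2 units. Acadl, the long-chain enzyme, was at 9.04, 9.54 and 9.32 in the descending aorta, 7.85, 8.90 and 8.60 in the ascending aorta, 8.29, 8.07 and 8.54 in the coronary artery and 7.02, 6.31 and 5.93 in the mesenteric artery. Acadm, the medium-chain enzyme, was at 9.27, 9.72 and 9.48 in the descending aorta, 7.81, 8.96 and 9.17 in the ascending aorta, 8.50, 8.28 and 8.72 in the coronary artery and 7.21, 6.32 and 6.39 in the mesenteric artery. In both genes the descending aorta was above every other array and the mesenteric artery below every other array, while the ascending aorta and the coronary artery overlapped. Acadvl, the very-long-chain enzyme, followed the same order of arrays, with 8.36, 8.68 and 8.57 in the descending aorta, 7.0, 8.11 and 7.96 in the ascending aorta, 7.50, 7.14 and 7.53 in the coronary artery and 6.18, 5.89 and 5.64 in the mesenteric artery. The log2 difference between descending aorta and mesenteric artery was 2.07 for Acads, the short-chain enzyme, and 1.91, 2.49 and 2.23 for Etfa, Etfb and Etfdh.

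The later steps of the spiral, hydration, a second oxidation and thiolysis, gave a like picture. Hadhb, the beta subunit of the mitochondrial trifunctional protein, whose window of 4 GC boxes was printed with that of Fabp3, was at 9.59, 9.77 and 9.63 in the descending aorta, 8.21, 9.22 and 9.14 in the ascending aorta, 8.87, 8.54 and 9.01 in the coronary artery and 7.05, 6.99 and 6.63 in the mesenteric artery. Hadha, its alpha subunit, was 2.07 higher in the descending aorta than in the mesenteric artery (limma adjusted p = 0.00101), against 2.77 for Hadhb (limma adjusted p = 0.000460). Acaa2, a thiolase, was at 9.63, 10.06 and 9.64 in the descending aorta, 8.23, 9.86 and 9.32 in the ascending aorta, 8.68, 8.84 and 9.10 in the coronary artery and 7.22, 7.23 and 6.91 in the mesenteric artery, so that the aortic segments overlapped. Echs1, a hydratase, was at 8.17, 8.95 and 8.58 in the descending aorta and at 5.78, 6.27 and 5.83 in the mesenteric artery. Its ascending aorta values of 6.15, 8.08 and 8.04 straddled the coronary values of 7.53, 7.79 and 7.90, and replicate 1 of the ascending aorta lay within the mesenteric range. Hadh, which carries out the second oxidation on short chains, was 2.55 higher in the descending aorta than in the mesenteric artery, and the thiolase Acat1 1.60 higher (limma adjusted p = 0.0196).

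Auxiliary enzymes prepare fatty acids with double bonds for oxidation, and thioesterases release fatty acids from CoA. Acot13, a thioesterase, was highest in the coronary artery, at 10.05, 10.12 and 10.30, followed by 8.82, 9.36 and 9.07 in the descending aorta, 7.13, 8.25 and 8.54 in the ascending aorta and 6.78, 7.14 and 7.15 in the mesenteric artery. The coronary arrays did not overlap with any other vessel, and replicate 1 of the ascending aorta was within the mesenteric range. Eci1, an isomerase, was at 8.36, 8.94 and 8.48 in the descending aorta, 6.63, 7.98 and 8.03 in the ascending aorta, 7.21, 7.48 and 7.82 in the coronary artery and 5.75, 5.91 and 5.75 in the mesenteric artery. Decr1, a reductase for unsaturated acyl-CoA, was at 9.02, 9.24 and 9.11 in the descending aorta and at 6.83, 6.85 and 6.61 in the mesenteric artery, with the ascending aorta at 7.38 to 8.71 and the coronary artery at 8.01 to 8.44 between them. Both Eci1 and Decr1 separated the descending from the mesenteric arrays with more than 2 log2 units between the means. The thioesterase Acot2 had the smallest difference of the called members, 1.17 (limma adjusted p = 0.0214), with 5.22, 5.24 and 5.41 in the descending aorta and 3.74, 4.65 and 3.96 in the mesenteric artery. The isomerase Eci2 was also among the narrow ones, with a difference of 1.26 (limma adjusted p = 0.0253).

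Pyruvate dehydrogenase and its kinases also differed between vessels, with more spread among replicates. Pdk4, a kinase that blocks pyruvate dehydrogenase and is known to be induced by fasting and fatty acids, was at 8.79, 9.39 and 9.37 in the descending aorta, 7.54, 8.63 and 8.78 in the ascending aorta, 7.93, 6.68 and 8.28 in the coronary artery and 7.67, 4.47 and 5.31 in the mesenteric artery. Replicate 1 of the mesenteric artery stood more than 2 log2 units above the other 2 arrays of that vessel and lay within the coronary range. The difference between descending aorta and mesenteric artery was 3.37 with a standard error of 0.67 (limma adjusted p = 0.0169), and over the 21 alternative settings it ran from 2.70 to 4.29, with limma adjusted p from 0.000822 to 0.0906. Pdk2, another kinase, was at 7.87, 8.45 and 8.45 in the descending aorta, 8.10, 7.91 and 8.41 in the coronary artery, 6.04, 7.84 and 7.88 in the ascending aorta and 7.12, 6.11 and 6.14 in the mesenteric artery. Its difference of 1.80 between descending aorta and mesenteric artery was close to the threshold (limma adjusted p = 0.0464) and missed it in 11 of 21 alternative settings. Pdhb, a subunit of the enzyme's first component, was at 9.07, 9.01 and 8.29 in the descending aorta, 7.11, 8.92 and 8.87 in the ascending aorta, 8.04, 7.67 and 7.82 in the coronary artery and 6.40, 6.18 and 5.87 in the mesenteric artery. Dld, the dehydrogenase subunit shared with the oxoglutarate complex, was at 8.51, 8.56 and 8.31 in the descending aorta, above the coronary values of 7.45, 7.30 and 7.34 and the mesenteric values of 6.58, 6.44 and 5.87. For Pdha1, the alpha subunit paired with Pdhb, the difference between descending aorta and mesenteric artery was 2.02 (limma adjusted p = 0.0052).

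**Figure D3:**
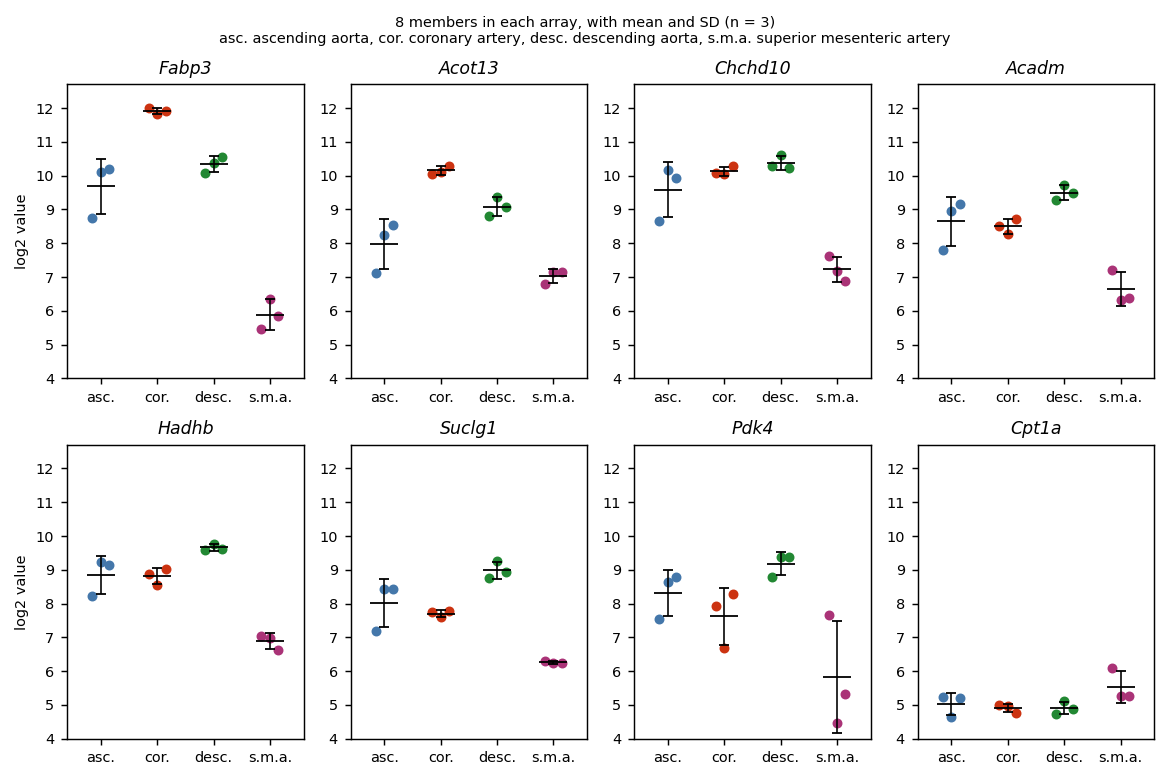
Log2 values of 8 members in each array (coloured points), with the mean and SD of the 3 arrays of a vessel in black (asc. ascending aorta, cor. coronary artery, desc. descending aorta, s.m.a. superior mesenteric artery). Fabp3 and Acot13 peak in the coronary artery, Pdk4 is spread widely in the mesenteric artery, and Cpt1a is slightly higher there than elsewhere.

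All 11 TCA cycle enzymes were called in the F test, as were 4.72% of all genes tested. All 11 were also called higher in the descending aorta than in the mesenteric artery, by 1.25 to 2.90, as were 2.84% of all genes tested. Sucla2, the subunit that makes the ATP-forming version of succinyl-CoA ligase, was at 9.02, 9.37 and 9.22 in the descending aorta, 7.63, 8.80 and 8.59 in the ascending aorta, 8.05, 7.76 and 8.20 in the coronary artery and 6.57, 6.37 and 5.97 in the mesenteric artery. Suclg1, its alpha subunit, was at 8.77, 9.26 and 8.93 in the descending aorta, 7.20, 8.43 and 8.43 in the ascending aorta, 7.75, 7.59 and 7.77 in the coronary artery and 6.31, 6.24 and 6.23 in the mesenteric artery. In both genes the descending aorta lay above and the mesenteric artery below all other arrays. Suclg2, the subunit for the GTP-forming version, spanned less, with 7.18, 7.53 and 7.10 in the descending aorta, 7.09, 7.32 and 6.80 in the coronary artery, 6.34, 6.89 and 6.90 in the ascending aorta and 5.97, 6.39 and 5.69 in the mesenteric artery. Idh3a, the catalytic subunit of NAD-dependent isocitrate dehydrogenase, was at 8.24, 8.62 and 8.22 in the descending aorta, 6.39, 7.76 and 7.69 in the ascending aorta, 7.21, 6.86 and 7.36 in the coronary artery and 5.43, 5.45 and 5.58 in the mesenteric artery. Its partner Idh3b had overlapping values in these vessels, 9.31, 9.18 and 9.56 in the coronary artery and 9.33, 9.72 and 9.57 in the descending aorta, with 8.12, 9.17 and 9.06 in the ascending aorta and 7.59, 7.35 and 7.34 in the mesenteric artery. For the other enzymes of the cycle, the log2 difference between descending aorta and mesenteric artery was 1.94 for citrate synthase Cs, 1.90 for Idh3g, 1.78 and 1.84 for the oxoglutarate dehydrogenase subunits Ogdh and Dlst, 2.10 for the fumarase Fh1 and 1.41 for the malate dehydrogenase Mdh2.

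Chchd10, a small protein of the space between the mitochondrial membranes, was at 10.28, 10.62 and 10.23 in the descending aorta, 10.07, 10.04 and 10.28 in the coronary artery, 8.65, 10.18 and 9.92 in the ascending aorta and 7.62, 7.18 and 6.89 in the mesenteric artery. The coronary and descending aorta arrays overlapped, and every mesenteric array was below all the others.

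The descending aorta differed from the superior mesenteric artery in all but 1 of the members. Of 39 members, 38 were higher in the descending aorta and 0 lower, where 2.84% of all genes tested were higher and 0.361% lower at the same limma threshold. The member left over was Cpt1a. Because the members were chosen with earlier results of these data known, these counts are not an independent result. The median difference over the 39 was 2.16, against -0.01 over all genes tested, and for 38 members the 3 descending aorta arrays all lay above the 3 mesenteric arrays, as they did for 12.5% of all genes tested. After Fabp3 and Pdk4, the widest differences were those of Chchd10 at 3.15 (limma adjusted p = 0.000702), Sucla2 at 2.90 (0.000582), Acadl at 2.88 (0.000702) and Idh3a at 2.88 (0.000702). With each of 21 alternative settings, 32 of the 38 members passed every time; the 6 that missed at least once were Acat1, Eci2, Acot2, Pdk2, Pdk4 and Suclg2. The brown adipocyte list was at 5.49 to 6.29 in the descending aorta and 3.27 to 3.86 in the mesenteric artery, and 37 members were higher when replicate 1 of the ascending aorta (high in lymphocyte markers), replicate 1 of the descending aorta (the highest of the aortic arrays in cardiomyocyte markers) and replicate 3 of the mesenteric artery (high in acinar markers) were left out together. In that setting 3.81% of all genes tested were called.

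The coronary artery was compared with the same mesenteric arrays, so this comparison is not independent of the last. Here 26 members were higher in the coronary artery and 0 lower, against 2.71% of all genes tested higher and 0.527% lower by limma. The median difference over the 39 members was 1.49. Fabp3 led with 6.02, followed by Acot13 at 3.13 (limma adjusted p = 6.3e-05) and Chchd10 at 2.90 (0.000285), then Idh3b at 1.92 (0.000882) and Hadhb at 1.91 (0.000919). By role, 10 of 11 TCA cycle enzymes and 6 of 7 dehydrogenase and electron transfer members were called, with median differences of 1.35 and 1.79. Of 5 members around pyruvate dehydrogenase 1 was called, with a median of 1.69, and of 4 carriers and shuttle members 1, with a median of 1.11; differences between roles were not tested. In 37 members the 3 coronary arrays lay above the 3 mesenteric arrays, as in 11.3% of all genes tested. Leaving out replicate 3 of the coronary artery brought the count to 11 and leaving out replicate 3 of the mesenteric artery to 13; 11 members passed in all 21 settings, among them Fabp3, Acot13, Chchd10, Hadha, Hadhb and Mdh2. Without 1 or the other of these 2 arrays, 1.57% and 1.83% of all genes tested were called. Cardiomyocyte markers averaged 10.21 to 10.28 in the coronary artery and 4.13 to 4.69 in the mesenteric artery.

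Between the ascending aorta and the mesenteric artery, 11 members were higher in the ascending aorta and 0 lower, against 0.135% and 0.0401% of all genes tested by limma. They were Fabp3, the dehydrogenases Acadvl, Acadl and Acadm, the trifunctional protein subunits Hadha and Hadhb, Acaa2, Idh3a, Sucla2, Suclg1 and Chchd10. Fabp3 had the largest difference, 3.80 (limma adjusted p = 0.00104), and Chchd10 the next among those called, 2.35 (0.0139). The median over the 39 members was 1.40, and in 29 members all 3 ascending arrays lay above all 3 mesenteric arrays, as in 4.73% of all genes tested. The count turned on single arrays: it was 35 without replicate 1 of the ascending aorta, the array with high lymphocyte markers, and 1 without replicate 2 or 3 of the ascending aorta or replicate 3 of the mesenteric artery. It was 3 without replicate 2 of the mesenteric artery, and 4 to 7 without any single array of the coronary artery or the descending aorta, which enter through the shared estimate of spread. Of all genes tested, 3.15% were called without replicate 1 of the ascending aorta. In the fits with 1 member called, 0.0301% to 0.0401% of all genes were called. In the other single-array fits just named, 0.0953% to 0.125% were called. With the 6 arrays of this pair alone the member count was 0, as it was over all 19938 genes tested. No member passed in every setting, while the lowest and highest difference for Fabp3 over the settings were 3.54 and 4.28.

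The 2 aortic segments were not told apart by the test. Ascending against descending aorta gave 0 members higher and 0 lower by limma, where 0% of all genes tested were higher and 0.015% lower. Still, 38 of the 39 means lay below those of the descending aorta, by a median of 0.85 log2 units, against 0.02 over all genes tested, and 34 members had an unadjusted p under 0.05, as had 1922 of the 19938 genes tested. In 32 members all 3 ascending arrays were below all 3 descending arrays, as in 9.62% of all genes tested. The differences ran from -1.14 for Echs1 to 0.12 for Cpt1a. The median was -0.47 without replicate 1 of the ascending aorta and -1.02 without replicate 2, and the count was 0 in all 21 settings. The shared adipocyte markers averaged 6.72 in replicate 1 of the ascending aorta, which also had the lowest value of its vessel for 38 of 39 members.

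**Figure D4:**
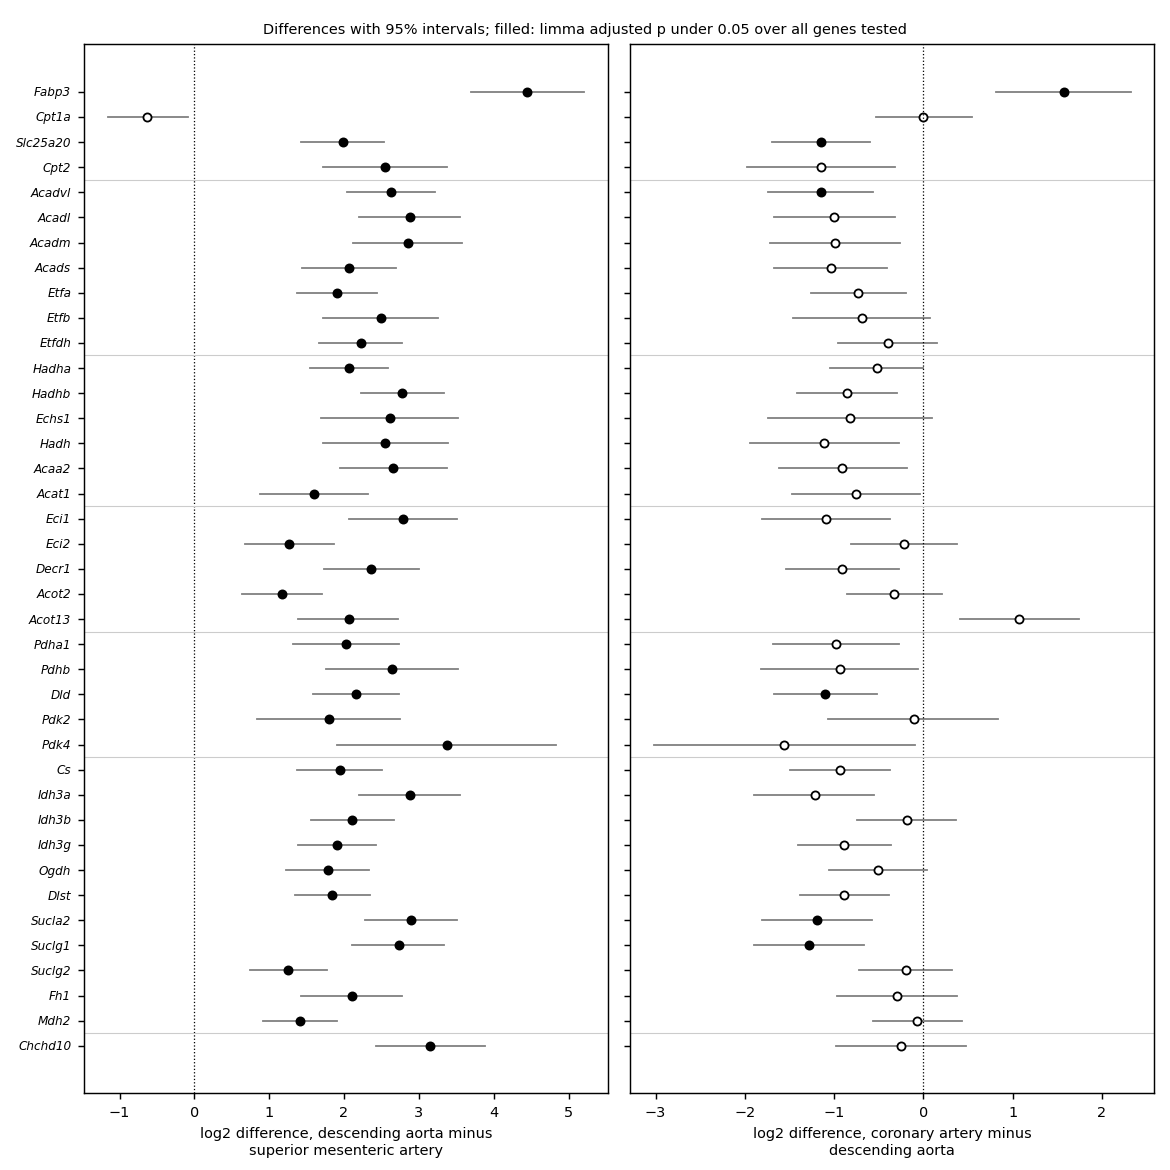
Log2 differences (horizontal axis) of the 39 members, descending aorta minus superior mesenteric artery on the left and coronary artery minus descending aorta on the right, with 95% confidence intervals not adjusted for the number of genes; filled points passed the limma threshold over all genes tested, 38 on the left and 6 on the right. Left, all points but Cpt1a are above 0; right, most are below 0, with Fabp3 and Acot13 above.

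The coronary artery lay below the descending aorta for most members and above it for Fabp3 and Acot13. By limma 1 member was higher in the coronary artery and 5 were lower, against 1.53% of all genes tested higher and 1.61% lower. Fabp3 was 1.57 higher (limma adjusted p = 0.0288). Lower in the coronary artery were Suclg1 by 1.28 (limma adjusted p = 0.0284), Sucla2 by 1.19 (0.0393), Slc25a20 by 1.15 (0.0269), Acadvl by 1.15 (0.0408) and Dld by 1.10 (0.0450). Acot13 was 1.07 above the descending aorta without passing (limma adjusted p = 0.0963). Over the 39 members the median was -0.89, and in 27 the 3 coronary arrays were all below the 3 descending aorta arrays, as in 12.5% of all genes tested. The count of 6 was 26 without replicate 1 of the ascending aorta, which enters through the shared spread, 3 without replicate 2 of the mesenteric artery, 1 without replicate 1 of the descending aorta and 0 without any 1 of the other 5 coronary and descending aorta arrays. Of all genes tested, 5.3%, 2.92% and 1.93% were called in the first 3 of these settings. With the other 5 arrays left out 1 at a time, 1.63% to 2.29% were called. In these vessels the cardiomyocyte list averaged 10.21 to 10.28 against 3.87 to 5.88, and the brown adipocyte list 3.68 to 3.92 against 5.49 to 6.29.

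Ascending aorta and coronary artery had close values for most members. By limma 0 members were higher and 2 lower in the ascending aorta, against 0.602% of all genes tested higher and 1.87% lower. These were Fabp3, which was 2.22 lower (limma adjusted p = 0.00362), and Acot13, which was 2.18 lower (0.00143), and both passed in all 21 settings. Without replicate 1 of the ascending aorta the count was 3, with 3.85% of all genes tested called. The median over the 39 members was 0.03, with 22 means above and 17 below 0. The widest of the others was -0.89 for Pdk2 (limma adjusted p = 0.377).

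Subunits of 1 enzyme, and the kinases Pdk4 and Pdk2, were also compared within arrays. A pair of probe sets cannot be set against each other in level, but the log2 difference between 2 genes in an array can be compared between arrays, and 8 pairs, chosen after their values were seen, were compared in this way. Idh3a minus Idh3b was between -2.32 and -2.10 in the coronary artery and between -1.35 and -1.09 in the descending aorta, with no overlap. Suclg1 minus Suclg2 was between 0.27 and 0.97 in the coronary artery and between 1.59 and 1.83 in the descending aorta. Pdk4 minus Pdk2 was between -1.23 and -0.13 in the coronary artery and between 0.92 and 0.94 in the descending aorta. In these 3 pairs the first gene stood higher relative to the second in the descending aorta. Hadha minus Hadhb went the other way, between 0.00 and 0.12 in the coronary artery and between -0.27 and -0.25 in the descending aorta. An exact two-sided permutation test of 3 against 3 arrays gave p = 0.1 for each of the 4 pairs, the smallest p it can give, and 0.133 after Benjamini-Hochberg adjustment over the 16 tests run (8 pairs, in this comparison and between descending aorta and mesenteric artery). Sucla2 minus Suclg1 overlapped, at 0.17 to 0.43 in the coronary artery and 0.11 to 0.29 in the descending aorta. Idh3a minus Idh3g did not, at -2.44 to -2.24 and -2.13 to -1.9 (exact permutation p = 0.1, 0.133 adjusted). In all, 5 of the 8 pairs did not overlap in this comparison. Between descending aorta and mesenteric artery 7 did not, again with a smallest exact permutation p of 0.1 (0.133 adjusted). Idh3a and Suclg1 each enter 2 of the pairs. How often other pairs of genes do not overlap was not counted, so these counts have no reference.

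The coronary artery and the descending aorta were close for several members. Their difference was -0.07 for Mdh2, the mitochondrial malate dehydrogenase, with a 95% interval from -0.56 to 0.43. For Idh3b the interval of the difference ran from -0.75 to 0.36, and for Chchd10 from -0.98 to 0.48. As a description over the 12 arrays, Pearson's r between a member and the mean of the other 38 was between 0.735 (Acot13) and 0.992 for 38 members, with 0.817 for Fabp3, and it was -0.672 for Cpt1a; the 12 arrays share vessels.

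Related genes outside the list followed in part. Of 19 measured enzymes that oxidise branched or odd chains and other mitochondrial substrates, 14 were higher in the descending aorta than in the mesenteric artery, where 2.84% of all genes tested were higher and 0.361% lower, with a median of 1.49; Hibch, of valine breakdown, was higher by 2.68 (limma adjusted p = 0.00201), Ech1 by 2.15 (0.00318) and Pccb, a propionyl-CoA carboxylase subunit, by 2.14 (0.00252). Other pyruvate and TCA cycle genes were called in 9 of 20, with a median of 1.22, among them the succinate dehydrogenase subunits Sdhb at 2.42 (limma adjusted p = 0.00273) and Sdhd at 2.07 (0.00291) and the pyruvate carrier Mpc1 at 2.28 (0.0192). Fatty acid uptake and activation genes were called in 7 of 15 (median 1.03), with Slc27a2, a transporter that is also in the brown adipocyte list, at 2.68 (limma adjusted p = 0.00367). Peroxisomal oxidation genes were called in 5 of 13 (median 0.76), with Pex11a at 2.47 (0.00520), and glycolysis genes in 7 of 14 (median 1.14), with Ldhb at 2.39 (0.00563). No gene of these 5 lists was lower. Of 16 transcriptional regulators, 4 were higher, namely the nuclear receptors Pparg at 2.71 (limma adjusted p = 0.00355) and Ppara at 1.99 (0.00104), the coactivator Ppargc1b at 1.23 (0.0120) and the deacetylase Sirt3 at 0.93 (0.0330).

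The same lists were counted in the coronary artery. Against the descending aorta, where 1.53% of all genes tested were higher and 1.61% lower, 0 of 15 uptake genes were higher and 4 lower, 0 of 13 peroxisomal genes were higher and 6 lower, and 0 of 19 other mitochondrial enzymes were higher and 9 lower. Of 20 other pyruvate and TCA cycle genes, 1 was higher, the aminotransferase Got2 by 2.10 (limma adjusted p = 0.00101), and 2 were lower. Of 16 regulators, Pparg was lower by 2.64 (limma adjusted p = 0.00300) and Ppara by 1.36 (0.00587), with 0 higher. Glycolysis genes went both ways, with 3 higher and 2 lower of 14; those higher were Pgam2 and Eno3, muscle forms of glycolytic enzymes, by 5.22 (limma adjusted p = 8.75e-06) and 4.30 (8.03e-06), and Pfkm by 1.65 (0.0123). Against the mesenteric artery, where 2.71% of all genes tested were higher, 8 of 20 other pyruvate and TCA cycle genes were higher in the coronary artery, with Idh2 at 2.34 (limma adjusted p = 0.000394), Sdhb at 2.22 (0.00321) and Mdh1 at 1.87 (0.00151), along with 2 of 15 uptake genes, 3 of 19 other mitochondrial enzymes, 5 of 14 glycolysis genes, 1 of 16 regulators and 0 of 13 peroxisomal genes, and 0 genes of these lists were lower. In the ascending aorta, Ppara was the only gene of the 7 lists called against the mesenteric artery, higher by 1.66 (limma adjusted p = 0.0139). Against the coronary artery, where 0.602% of all genes tested were higher and 1.87% lower, 3 of 14 glycolysis genes were lower in the ascending aorta, Pgam2 by 6.01 (limma adjusted p = 2.94e-06), Eno3 by 4.40 (6.28e-06) and Pfkm by 2.12 (0.0027), and 1 of 15 uptake genes was higher, Fabp4, by 1.0 (limma adjusted p = 0.0378). Of 20 other pyruvate and TCA cycle genes 4 were lower, among them Got2 by 1.99 (limma adjusted p = 0.00167) and Idh2 by 1.66 (0.00655), and Pparg was higher by 1.74 (0.0461) and Ppara by 1.03 (0.0393). Between the aortic segments 0 genes of the 7 lists were called.

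Fabp3, Hadhb and Suclg2 each had a second probe set. In the comparison of descending aorta with mesenteric artery the probe set not used gave 4.35 against 4.45 for Fabp3, 2.82 against 2.77 for Hadhb and 1.20 against 1.25 for Suclg2, in the same direction each time. Where these probe sets lie in the genome was not checked. Either set of a gene may read a near-identical copy, so the likeness is not an independent measurement.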

How the data were processed

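Total RNA of 4 mouse arteries was hybridised to Affymetrix arrays, 3 per vessel. The authors deposited log2 values for 35556 probe sets in 12 arrays. The submitters' processing notes name RMA, which corrects background, normalizes and summarises probes, and Partek 6.6, with no role or order. Median log2 values per array were 4.04 to 4.18. Detection calls and scanner files were not used here, so signal over background is unknown; 3 arrays a vessel limit the precision.

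Of the probe sets, 21789 had 1 symbol, 1621 several and 12146 none; the latter groups were left out. Of the first, 21698 were found in RefSeq's GRCm38.p6 genes through their identifier, which changed 0 symbols. A gene with several probe sets (999 genes) took the one with the highest mean, which gave 19938 genes. A high value at a transcript that has a near-identical copy in the genome can come from either.

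Samples were grouped by their labels. Vessel means were fitted to the 12 arrays together (limma 3.58.1, R 4.3.3, and the package data.table in version 1.17.8; 8 residual degrees of freedom), with Benjamini-Hochberg adjustment over all genes within each of 6 contrasts and a threshold of 0.05; the fit was tested on simulated data. Promoter windows were searched and figures drawn with Python 3.11.15, pandas 2.3.3 and matplotlib 3.10.9. The labels do not say that same-numbered arrays share an animal, so the fit has no block. Same-numbered arrays did not deviate together (r from -0.251 to 0.0889 over 18 pairs). Array correlations were 0.890 to 0.976 within a vessel and 0.858 to 0.976 between vessels, and 0 arrays were identical.

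The members and lists were chosen with earlier results of these data known. Per-array values were given for up to 3 members of each role with the widest range between vessels, for Fabp3, Chchd10, Pdk2 and Pdk4 and for members with the smallest range; Idh3b was added after its values were seen, as the partner of Idh3a; of each of 7 pathway lists at most 4 called genes were named. Of the 13 marker lists, each was averaged per array and none tested: the endothelial list was at 5.45 to 7.68, fibroblast at 6.01 to 8.51, macrophage at 6.68 to 8.57, skeletal muscle at 3.51 to 4.69, neural and glial at 3.60 to 4.41, intestinal epithelium at 2.62 to 2.87 and the 1 erythroid gene measured at 4.82 to 9.87. Of the ketone body list, 1 of 2 measured genes was higher in the coronary than in the mesenteric artery. Alternatives were a filter that drops the 25% dimmest genes, centring by the median, a second quantile normalization, probe set averages, array weights, an intensity trend, a replicate block, fits without 3 arrays or of 1 pair, and leaving out each array.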

Additional observations from a re-analysis of the deposited data

How the results depend on the processing

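No called member changed direction under any of the 21 alternatives. The F test gave 30 to 38 members throughout, while 2.76% to 9.15% of all genes tested were called. Ascending aorta against mesenteric artery (11 members) gave 35 with array weights, where 2.22% of all genes tested were called. It gave 31 (1.66% of all genes) without replicate 1 of each aortic segment and replicate 3 of the mesenteric artery. Those 3 arrays were picked for lymphocyte, cardiomyocyte and acinar markers, but arrays kept also carried other tissues' transcripts. Cardiomyocyte markers averaged 10.21 to 10.28 in the coronary arrays kept. The 6 arrays of the pair alone gave 0 (0%), and single arrays left out gave 1 to 35 (0.0301% to 3.15%). Coronary artery against descending aorta (6) gave 2 after renewed quantile normalization (2.67% of all genes tested) and 22 with array weights (5.49%). It gave 20 without the 3 arrays (3.63%) and 24 with the pair alone (6.32%). Single arrays left out gave 0 to 26 (1.63% to 5.3%). Coronary against mesenteric artery (26) gave 11 to 37 with single arrays left out (1.57% to 6.48% of all genes tested). Descending aorta against mesenteric artery (38) gave 32 to 38 (1.09% to 6.83%). The cause was not tested. Array weights gave replicate 1 of the ascending aorta 0.262.

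Same-numbered arrays share only a number. With the replicate number as a block, ascending aorta against mesenteric artery gave 5 members in place of 11 (0.115% of all genes tested). Descending aorta against mesenteric artery gave 37 (3.21%), and coronary against mesenteric artery gave 24 (3.18%). Coronary artery against descending aorta gave 5 (2.63%): Acadvl, Dld and Sucla2 no longer passed, while Acads and Acot13 did. Among the other settings, the widest shift of the median of all genes was below 0.1 log2 units. The samples per vessel are few, so a difference that missed the threshold is not shown to be absent.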
